A study of Mus musculus with 12 samples.

Results

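Homologous recombination repairs broken DNA by copying an intact sister strand, and the Fanconi anaemia pathway removes crosslinks between the strands and hands the resulting breaks to recombination. The mouse genes of these pathways described here are the 36 whose symbols in the deposited count table matched a fixed list, out of 55421 Ensembl genes in that table. All 36 were found. They were grouped by role into 6 damage kinases and checkpoint genes, 5 end resection genes, 5 genes of the BRCA complexes, 9 genes of strand exchange, 8 Fanconi core and ID complex genes and 3 junction nuclease genes.

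RNA was sequenced from cultures of MOC2, a mouse oral squamous cell carcinoma line, in 4 groups of 3 libraries. The derivative labelled MOC2-25, EV-Proficient, was sampled with DMSO as the treatment label of its controls and after 600 nM paclitaxel for 48 h, a drug that stabilises microtubules and was used to bring the cells into senescence. The derivative labelled MOC2-27, EV-Deficient, in which release of extracellular vesicles (EVs) was blocked genetically, was sampled under the same 2 conditions. The labels do not name the blocked gene, and each EV label stands for 1 derivative, so effects of the label and of the line cannot be told apart. No label says that the 3 libraries of a group came from separate experiments, so p-values measure the spread between these libraries, which may be technical.

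In the recombination pathway, the kinases ATM and ATR sense breaks and stalled forks, nucleases resect the broken ends to single strands, and the BRCA proteins prepare the single strand for pairing with its intact copy. The Fanconi core complex attaches ubiquitin to the FANCD2 and FANCI pair at crosslinks, and structure-specific nucleases cut the joined molecules apart. Many of these genes are transcribed mainly in S and G2 phase, when a sister copy is present, and loss of several of them predisposes to cancer in people.

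Library totals ran from 23263472 to 62955757 counts, and the lowest level of any of the 36 genes in any library was 3.42 CPM (counts per 1000000, on library sizes scaled by trimmed mean of M values), in Rad51b. All 36 genes passed the low-count filter, as did 18108 of the 35104 genes with any count. Of 10 markers of the labelled tissue, Krt8, Krt18, Epcam, Cdh1, Itgb4, Sfn and the basal keratin gene Krt14 were at 48.6 CPM or more in every library, Krt6a ran from 2.03 to 336 CPM, and the basal markers Krt5 and Trp63 were near 0, with at most 8 and 11 counts in any library. Of the 8 of these markers tested, 7 were called lower under paclitaxel in the average of both EV labels and 1 higher, with a median log2 fold change of -0.88, and Krt6a (-4.21 ± 0.08 SE) fell most. Of these 8, the EV-deficient label was called higher in 4 and lower in 2 under DMSO, against 12.4% and 10.6% of all genes tested. Under paclitaxel it was higher in 1 and lower in 5, against 16.0% and 21.8%. Krt14 and Krt6a were higher in the EV-deficient label under DMSO (1.83 and 2.92) and lower under paclitaxel (-1.26 and -2.61). Itgb4 was lower there under DMSO (241 to 263 against 365 to 368 CPM), and Cdh1 higher under paclitaxel (774 to 800 against 595 to 615 CPM). The mitochondrial share of counts was 0.550% to 0.729% in the DMSO libraries, 0.846% to 0.907% in EV-proficient and 1.07% to 1.45% in EV-deficient paclitaxel libraries. The leukocyte markers Cd3e, Adgre1 and Nkg7 had at most 4 counts in any library. The summed level of all 10 leukocyte markers was 7.83 to 8.96 CPM in EV-proficient DMSO, 21.2 to 22.1 in EV-deficient DMSO, 40.5 to 45.9 in EV-proficient paclitaxel and 27.5 to 47.6 CPM in EV-deficient paclitaxel libraries, most of it Cd68 and Csf1r. Over the 4 leukocyte markers tested, 3 were called higher under paclitaxel in the average of both EV labels, as were 3 of 6 fibroblast and 1 of 4 endothelial markers, whose sums stayed at 1.70 to 8.88 and 1.88 to 4.52 CPM. Over all genes tested, 37.1% were called higher in that comparison. The part of other cell types, of the tissue markers and of the mitochondrial share in the results below was not tested. The libraries did not all sort by their EV label. The dngfr sequence, 1 of 2 rows the authors added to the table, stood at 5.29 to 11.4 CPM of unscaled library totals in EV-proficient DMSO and 10.9 to 14.2 in EV-deficient paclitaxel libraries, but at 1.68 to 2.33 in EV-deficient DMSO and 2.60 to 3.998 in EV-proficient paclitaxel libraries. The second principal component split the libraries in the same crossed way. The labels do not say which cells carry that sequence, and whether the paclitaxel libraries carry the EV label of their cultures was not tested. The average of the paclitaxel effects in both EV labels has the same value whichever EV label those libraries carry, so it is given first. Every EV-label difference and every paclitaxel effect within 1 EV label below is as labelled, and would take another value if those labels were crossed.

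Averaged over both EV labels, paclitaxel lowered 30 of the 36 genes and raised 6, in edgeR's quasi-likelihood test with Benjamini-Hochberg adjustment over all 18108 genes at a threshold of 0.05. Over all genes tested, 31.3% were called lower and 37.1% higher in this comparison. The median log2 fold change of the 36 genes was -0.54, against 0.07 over all genes tested. The genes that fell by at least 2-fold were the nuclease gene Eme1, the resection exonuclease gene Exo1, and the Fanconi core genes Fanca and Fancb, which is 4 of 36, against 5.03% of all genes tested. Those that rose were Rad51b, Chek2, Rad52, Fancg, Rad51c and Rad50. Of these 6, Rad51b and Rad52 alone were called higher within both EV labels. Rad51c was called lower in the EV-deficient label, and all 8 Fanconi genes, Fancg among them, were at -0.19 or lower there. In 19 of the 36 genes every one of the 6 paclitaxel libraries lay below every DMSO library, against 18.5% of all genes tested, and in 2, Rad51b and Rad52, every paclitaxel library lay above, against 18.3%. The remaining 15 overlapped. In RNA from whole cultures, fewer cells of a kind and less RNA per cell cannot be told apart.

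**Figure D1:**
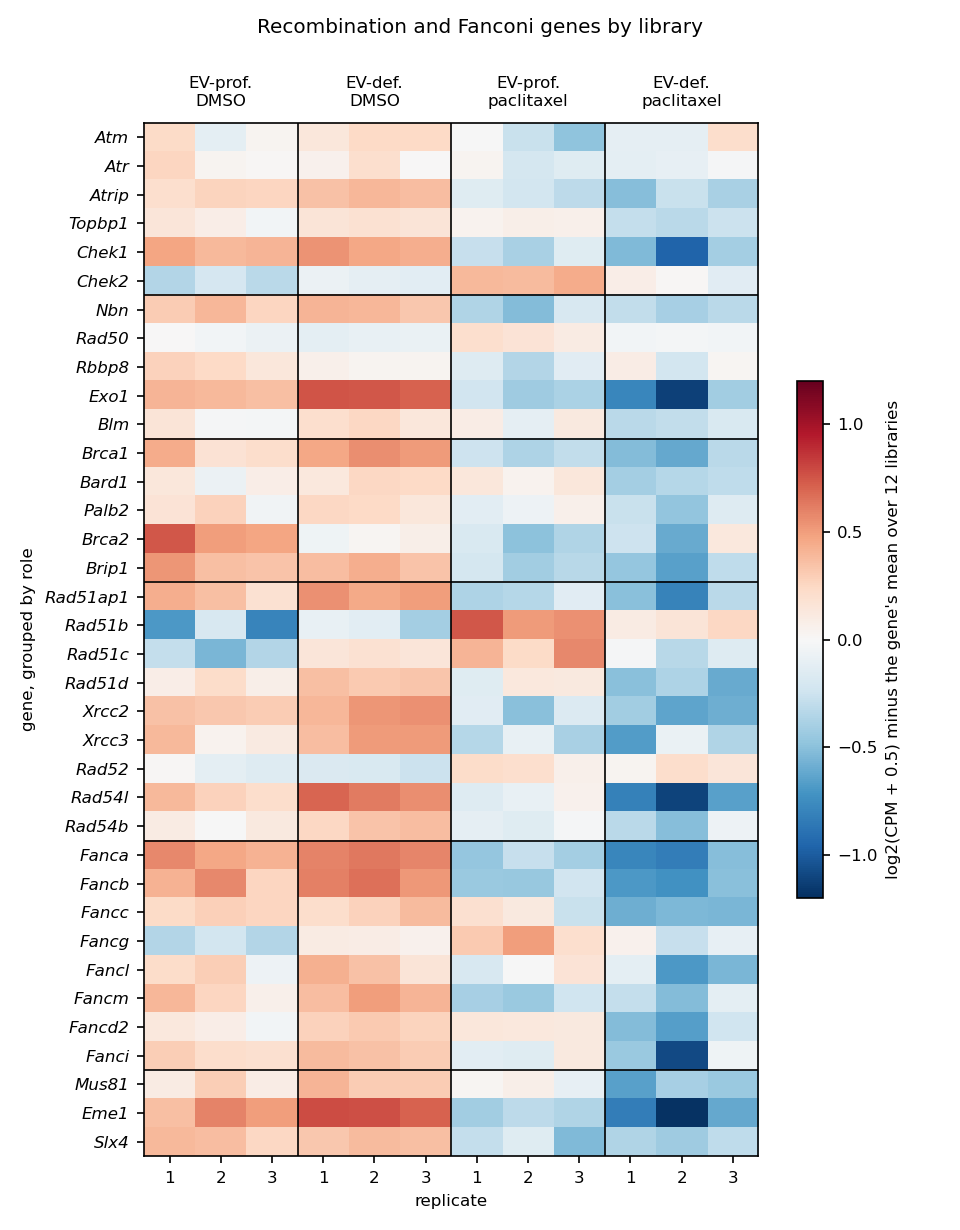
Heat map of the 36 genes (rows, grouped by role and separated by lines) in the 12 libraries (columns, by group and replicate number), coloured by log2(CPM + 0.5) minus the gene's own mean over the 12 libraries. Most rows are red in the 6 DMSO columns and blue in the 6 paclitaxel columns, while Chek2, Rad51b, Rad51c and Fancg are darkest red under paclitaxel in the EV-proficient columns.

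Among the damage kinases and checkpoint genes, 5 of 6 fell and 1 rose. The 2 effector kinases went opposite ways. Chek1, the kinase that ATR activates to hold back S phase and mitosis (ENSMUSG00000032113, chr9:36708482-36727065), was at 34.5, 32.7 and 33.1 CPM in EV-proficient DMSO, 36.3, 34.4 and 33.8 in EV-deficient DMSO, 20.4, 18.9 and 22.4 in EV-proficient paclitaxel and 17.1, 12.5 and 18.5 in EV-deficient paclitaxel libraries. Every paclitaxel library lay below every DMSO library, and EV-deficient paclitaxel replicate 2 was lowest. The average log2 fold change of Chek1 was -0.91 ± 0.08 SE (edgeR adjusted p 6.87e-10). Chek2, the effector kinase of ATM (ENSMUSG00000029521, chr5:110839979-110874145), was at 20.5, 22.8 and 20.96 CPM in EV-proficient DMSO, 25.1, 24.5 and 24.1 in EV-deficient DMSO, 34.7, 34.4 and 36.1 in EV-proficient paclitaxel and 27.9, 26.6 and 24.0 in EV-deficient paclitaxel libraries. The EV-proficient paclitaxel libraries stood above all others, and the EV-deficient paclitaxel libraries overlapped those under DMSO. Its average log2 fold change was 0.40 ± 0.06 SE (edgeR adjusted p 1.66e-06), made up of 0.71 ± 0.08 SE in the EV-proficient and 0.09 ± 0.08 SE in the EV-deficient label. The second of these did not pass the threshold, except with upper-quartile scaling (0.27).

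The sensor genes moved less. Atm, the kinase of double-strand breaks, averaged -0.25 ± 0.08 SE, and Atr, the kinase of single-stranded DNA, averaged -0.19 ± 0.06 SE (edgeR adjusted p 0.00735 and 0.00661). Both calls were lost with upper-quartile scaling, at -0.12 and -0.07. The 2 partners of Atr differed in size of fall. Atrip, which brings ATR to coated single strands, fell by 0.63 on the log2 scale (SE 0.06, edgeR adjusted p 6.11e-09), from 24.0 to 27.7 CPM over the DMSO libraries to 14.5 to 18.8 CPM over the paclitaxel libraries. Topbp1, the activator of ATR, averaged -0.23 ± 0.04 SE, with -0.01 ± 0.06 SE in the EV-proficient and -0.45 ± 0.06 SE in the EV-deficient label. Topbp1 libraries labelled EV-deficient paclitaxel, at 185 to 194 CPM, lay below all others, which ran from 226 to 263 CPM. Atrip shares 16.04% of its exon bases with Trex1 on the same strand, so reads there could belong to either gene.

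In end resection, 4 of 5 genes fell and 1 rose. Exo1, the exonuclease of long-range resection (ENSMUSG00000039748, chr1:175880581-175913489), was at 66.4, 65.3 and 64.2 CPM in EV-proficient DMSO, 84.4, 84.1 and 81.6 in EV-deficient DMSO, 42.4, 36.9 and 38.1 in EV-proficient paclitaxel and 28.7, 22.6 and 37.1 in EV-deficient paclitaxel libraries. All paclitaxel libraries lay below all DMSO libraries, the EV-deficient DMSO libraries were highest, and EV-deficient paclitaxel replicate 2 was lowest. Exo1 had an average log2 fold change of -1.12 ± 0.08 SE (edgeR adjusted p 3.96e-11), which is 2.17-fold lower. Rad50, the ATPase of the complex that first holds broken ends (ENSMUSG00000020380, chr11:53649519-53707319), was at 106, 104 and 101 CPM in EV-proficient DMSO, 97.3, 99.2 and 100.0 in EV-deficient DMSO, 122, 119 and 113 in EV-proficient paclitaxel and 104, 104 and 103 in EV-deficient paclitaxel libraries. The EV-proficient paclitaxel libraries were highest and the EV-deficient DMSO libraries lowest, and the other 2 groups overlapped. Its average log2 fold change was 0.13 ± 0.04 SE (edgeR adjusted p 0.00674), and it lost the call without EV-proficient paclitaxel replicate 1 (0.09) or replicate 2 (0.09).

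Nbn, the partner that ties RAD50 to ATM, did not follow Rad50. It fell by 0.71 on the log2 scale (SE 0.06, edgeR adjusted p 3.64e-10), from 40.0 to 44.3 CPM over the DMSO libraries to 23.1 to 29.0 CPM over the paclitaxel libraries, with no overlap. The fall of Nbn was -0.69 ± 0.08 SE in the EV-proficient and -0.73 ± 0.08 SE in the EV-deficient label. Rad50, of the same complex, was called higher in the average and in the EV-proficient label, with the losses given for it, and was at 0.07 ± 0.06 SE, not past the threshold, in the EV-deficient label, where it was called higher with upper-quartile scaling (0.25) and with the filter of 1 CPM in 3 libraries (0.13). Blm, the helicase of resection and junction dissolution, averaged -0.24 ± 0.05 SE (edgeR adjusted p 4.34e-04). That value came from -0.01 ± 0.08 SE in the EV-proficient and -0.47 ± 0.07 SE in the EV-deficient label, and upper-quartile scaling lost the average call at -0.12. Rbbp8, which encodes CtIP, the starter of resection, is described with the EV-label differences.

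All 5 genes of the BRCA complexes fell. Brip1, the helicase bound to BRCA1 (ENSMUSG00000034329, chr11:86058138-86201193), was at 47.8, 42.3 and 41.7 CPM in EV-proficient DMSO, 42.6, 44.7 and 41.7 in EV-deficient DMSO, 28.3, 24.5 and 26.1 in EV-proficient paclitaxel and 23.8, 20.8 and 26.6 in EV-deficient paclitaxel libraries. Paclitaxel libraries lay below DMSO libraries without overlap, whichever EV label they carried. Brip1 had an average log2 fold change of -0.80 ± 0.06 SE (edgeR adjusted p 2.48e-10), nearly the same in the EV-proficient (-0.74 ± 0.09 SE) as in the EV-deficient label (-0.86 ± 0.09 SE). Bard1, the ubiquitin ligase partner of BRCA1 (ENSMUSG00000026196, chr1:71027498-71103146), was at 40.8, 35.3 and 39.2 CPM in EV-proficient DMSO, 40.6, 44.3 and 44.1 in EV-deficient DMSO, 40.8, 38.1 and 40.9 in EV-proficient paclitaxel and 27.8, 29.1 and 29.9 in EV-deficient paclitaxel libraries. The EV-deficient paclitaxel libraries lay below all others, and the other 3 groups overlapped. Its average of -0.26 ± 0.05 SE (edgeR adjusted p 1.69e-04) came from 0.06 ± 0.07 SE in the EV-proficient and -0.57 ± 0.07 SE in the EV-deficient label.

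Brca1 itself fell by 0.79 on the log2 scale on average (SE 0.06, edgeR adjusted p 3.76e-11), from 95.6 to 125 CPM over the DMSO libraries to 55.1 to 71.2 CPM over the paclitaxel libraries. Its 2 partners thus stood at different ends of the group, with Brip1 near Brca1 and Bard1 lowered least. Palb2, the bridge between BRCA1 and BRCA2, averaged -0.36 ± 0.08 SE, from 13.3 to 16.6 CPM to 9.69 to 14.2 CPM, and its libraries overlapped. Brca2, a tumour suppressor gene of the BRCA complexes (ENSMUSG00000041147, chr5:150522630-150570329), was at 64.5, 54.6 and 53.5 CPM in EV-proficient DMSO, 37.1, 39.0 and 40.2 in EV-deficient DMSO, 33.9, 27.2 and 29.9 in EV-proficient paclitaxel and 32.3, 25.0 and 42.0 in EV-deficient paclitaxel libraries. The EV-proficient DMSO libraries stood above all others. EV-deficient paclitaxel replicate 3, at 42.0 CPM, lay above the 3 EV-deficient DMSO libraries. Brca2 had an average log2 fold change of -0.58 ± 0.09 SE (edgeR adjusted p 7.68e-06), with -0.93 ± 0.13 SE in the EV-proficient label and -0.22 ± 0.13 SE, not past the threshold, in the EV-deficient label. The second of these was called without EV-deficient paclitaxel replicate 3 (-0.44) and without the low-count filter (-0.26).

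Strand exchange was the most divided role, with 6 of 9 genes lower and 3 higher. Rad54l, a DNA translocase of strand invasion (ENSMUSG00000028702, chr4:116094264-116123690), was at 29.6, 27.3 and 26.1 CPM in EV-proficient DMSO, 36.8, 35.0 and 33.4 in EV-deficient DMSO, 20.2, 21.04 and 23.4 in EV-proficient paclitaxel and 12.6, 10.1 and 14.1 in EV-deficient paclitaxel libraries. The paclitaxel libraries lay below the DMSO libraries, and the EV-deficient label held both the highest values under DMSO and the lowest under paclitaxel. Averaged over the EV labels, its log2 fold change was -0.94 ± 0.07 SE (edgeR adjusted p 1.77e-10). Rad51b, a subunit gene of the strand exchange complexes (ENSMUSG00000059060, chr12:79297282-79814690), was at 3.73, 5.46 and 3.42 CPM in EV-proficient DMSO, 5.91, 5.73 and 4.65 in EV-deficient DMSO, 10.9, 9.23 and 9.47 in EV-proficient paclitaxel and 6.78, 7.07 and 7.60 in EV-deficient paclitaxel libraries. All paclitaxel libraries lay above all DMSO libraries, with the EV-proficient label highest. Rad51b had the largest rise of the 36 genes, 0.81 ± 0.11 SE on average (edgeR adjusted p 1.63e-06), or 1.76-fold, and it is also the gene with the lowest counts.

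Rad51b, Rad51c, Rad51d, Xrcc2 and Xrcc3 encode subunits of complexes that act in strand exchange, and these 5 genes were not all called in 1 direction. Beside Rad51b, Rad51c averaged 0.25 ± 0.08 SE (edgeR adjusted p 0.0114), a call lost without EV-proficient paclitaxel replicate 3 (0.18) or EV-deficient paclitaxel replicate 1 (0.18). Rad51d (-0.46 ± 0.06 SE), Xrcc2 (-0.85 ± 0.08 SE) and Xrcc3 (-0.65 ± 0.10 SE) fell. Xrcc2 went from 14.6 to 17.4 CPM over the DMSO libraries to 7.38 to 10.6 CPM over the paclitaxel libraries, without overlap. Xrcc3 went from 13.8 to 19.2 CPM to 8.22 to 12.7 CPM, also without overlap. Rad51d went from 38.3 to 47.2 CPM to 23.9 to 39.9 CPM, and its groups overlapped because the EV-proficient paclitaxel libraries stayed at 33.0 to 39.9 CPM.

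Among the other strand exchange genes, Rad51ap1, which stimulates strand pairing, fell by 0.84 on the log2 scale (SE 0.08, edgeR adjusted p 2.51e-09). Rad54b, the second translocase, averaged -0.40 ± 0.08 SE (edgeR adjusted p 9.70e-05), and 35.8% of its exon bases are shared with Fsbp on the same strand, so its reads are uncertain. Rad52, which anneals complementary single strands, was at 11.01, 10.0 and 9.78 CPM in EV-proficient DMSO, 9.60, 9.55 and 9.01 in EV-deficient DMSO, 12.7, 12.6 and 11.4 in EV-proficient paclitaxel and 11.2, 12.7 and 12.1 in EV-deficient paclitaxel libraries. The paclitaxel libraries lay above the DMSO libraries under both EV labels, but by a small margin. Its average log2 fold change was 0.31 ± 0.07 SE (edgeR adjusted p 9.94e-04), 0.26 ± 0.11 SE in the EV-proficient and 0.35 ± 0.10 SE in the EV-deficient label.

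Of the 8 Fanconi genes, 7 fell and 1 rose. Fanca, a core complex scaffold and the gene most often altered in Fanconi anaemia (ENSMUSG00000032815, chr8:123268300-123318576), was at 98.2, 91.2 and 87.9 CPM in EV-proficient DMSO, 99.5, 102 and 98.9 in EV-deficient DMSO, 47.7, 54.3 and 49.4 in EV-proficient paclitaxel and 37.9, 36.9 and 46.1 in EV-deficient paclitaxel libraries. All paclitaxel libraries lay far below all DMSO libraries. The average log2 fold change was -1.09 ± 0.06 SE (edgeR adjusted p 2.57e-13), 2.13-fold lower. Fancb, an X-linked core subunit that pairs with the ligase FANCL, fell by 2.07-fold (log2 -1.05 ± 0.07 SE), from 18.7 to 25.0 CPM over the DMSO libraries to 9.21 to 13.2 CPM over the paclitaxel libraries. Fancg, the core subunit that binds FANCA (ENSMUSG00000028453, chr4:43002343-43010506), was at 6.87, 7.59 and 6.91 CPM in EV-proficient DMSO, 9.60, 9.55 and 9.30 in EV-deficient DMSO, 11.2, 12.8 and 10.3 in EV-proficient paclitaxel and 9.24, 7.27 and 8.33 in EV-deficient paclitaxel libraries. The EV-proficient paclitaxel libraries were highest and the EV-proficient DMSO libraries lowest, and the EV-deficient libraries lay between them except EV-deficient paclitaxel replicate 2, which overlapped EV-proficient DMSO. Its average of 0.25 ± 0.09 SE (edgeR adjusted p 0.0145) lost the call without EV-proficient paclitaxel replicate 2 (0.17) or EV-deficient paclitaxel replicate 1 (0.18).

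Fancm, the translocase that anchors the core complex on DNA, averaged -0.68 ± 0.07 SE, close in the EV-proficient (-0.62 ± 0.10 SE) and EV-deficient (-0.74 ± 0.10 SE) labels. Fancl, the ubiquitin ligase, averaged -0.49 ± 0.11 SE, and the core subunit gene Fancc averaged -0.56 ± 0.09 SE. The substrates of that ligase, FANCD2 and FANCI, bind each other. Fancd2 averaged -0.34 ± 0.06 SE (edgeR adjusted p 3.82e-05): under DMSO it ran from 36.8 to 47.1 CPM, in EV-proficient paclitaxel libraries from 41.1 to 41.7 CPM and in EV-deficient paclitaxel libraries from 23.7 to 31.9 CPM. Fanci averaged -0.56 ± 0.11 SE (edgeR adjusted p 1.24e-04) and ran from 25.3 to 29.0 CPM under DMSO, 19.99 to 24.1 CPM in EV-proficient paclitaxel and 10.2 to 21.3 CPM in EV-deficient paclitaxel libraries. Fancd2 thus overlapped between treatments in the EV-proficient label, and Fanci did not overlap in either. Exon bases shared with a neighbour on the opposite strand came to 16.4% in Fancc, 15.9% in Fanci, 13.7% in Fancl and 10.5% in Fanca, and, of the strand exchange genes, to 15.4% in Rad54l, and how the counting treated strand is not given in the sources used here.

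All 3 junction nuclease genes fell. Eme1, the partner that MUS81 needs to cut (ENSMUSG00000039055, chr11:94644996-94653964), was at 31.6, 37.2 and 35.0 CPM in EV-proficient DMSO, 42.6, 42.4 and 40.4 in EV-deficient DMSO, 18.3, 19.7 and 18.97 in EV-proficient paclitaxel and 13.5, 10.5 and 15.8 in EV-deficient paclitaxel libraries. The paclitaxel libraries lay far below the DMSO libraries, with the EV-deficient label highest under DMSO and lowest under paclitaxel. Its average log2 fold change of -1.26 ± 0.08 SE (edgeR adjusted p 3.56e-12), 2.39-fold lower, was the largest fall of the 36 genes. Mus81, which carries the catalytic site (ENSMUSG00000024906, chr19:5482345-5488402), was at 18.0, 20.7 and 18.0 CPM in EV-proficient DMSO, 22.5, 20.9 and 20.9 in EV-deficient DMSO, 17.2, 17.7 and 15.7 in EV-proficient paclitaxel and 10.5, 12.7 and 12.3 in EV-deficient paclitaxel libraries. The groups under paclitaxel lay below those under DMSO, but the EV-proficient paclitaxel libraries only just. Mus81 had an average log2 fold change of -0.51 ± 0.07 SE (edgeR adjusted p 9.36e-07), with -0.16 ± 0.10 SE in the EV-proficient and -0.86 ± 0.10 SE in the EV-deficient label. Slx4, the scaffold that gathers these nucleases, averaged -0.69 ± 0.06 SE (edgeR adjusted p 1.01e-09), from 45.0 to 49.6 CPM over the DMSO libraries to 25.97 to 34.2 CPM over the paclitaxel libraries.

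**Figure D2:**
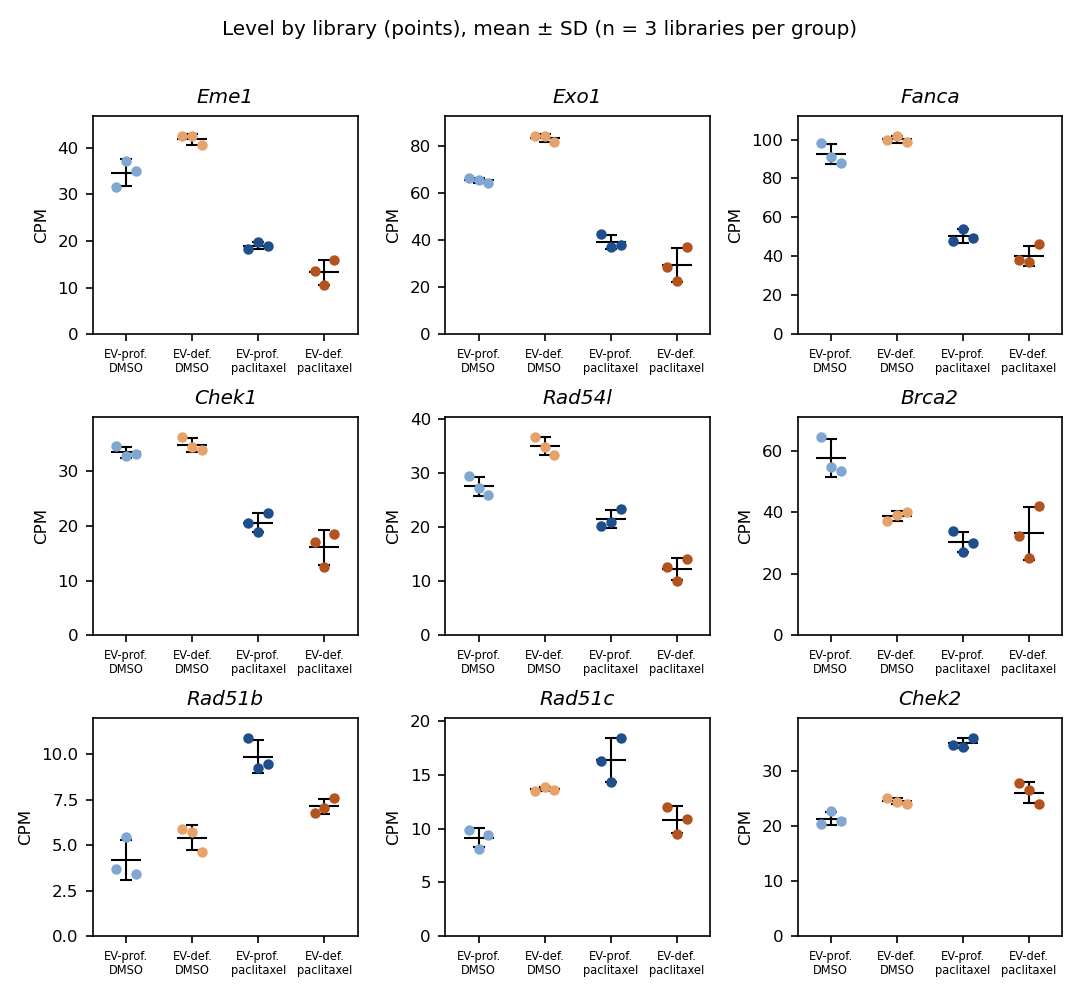
Level in CPM (vertical axes, from 0) of 9 of the genes in each library (points), with the group mean (bar) and SD over 3 libraries (whiskers), for the 4 groups. Eme1, Exo1, Fanca, Chek1 and Rad54l are lower in every paclitaxel library, Brca2 is highest in EV-proficient DMSO, and Rad51b, Rad51c and Chek2 are highest in EV-proficient paclitaxel.

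Within the EV-proficient label, 19 of the 36 genes were called lower, 6 higher and 11 in neither direction (27.1% and 31.1% of all genes tested were called lower and higher). The median log2 fold change of the 36 genes was -0.29, against 0.05 over all genes. None of them fell by 2-fold, against 6.07% of all genes tested. The genes called higher were Rad51b (1.23 ± 0.16 SE), Rad51c (0.83 ± 0.12 SE), Chek2 (0.71 ± 0.08 SE), Fancg (0.69 ± 0.12 SE), Rad52 and Rad50. The calls of Rad52 and Rad50 were lost without EV-proficient paclitaxel replicate 1 (0.18 and 0.12) or replicate 2 (0.18 and 0.13), and that of Rad52 also without EV-proficient DMSO replicate 2 (0.24) or replicate 3 (0.22), with median-of-ratios scaling (0.23), with DESeq2 (0.23) and without the low-count filter (0.28). Among the genes called lower, Atm and Atr lost the call without EV-proficient DMSO replicate 1 (-0.19 and -0.13), as did Xrcc3 (-0.35), Atm without EV-proficient paclitaxel replicate 3 (-0.23) and Atr without replicate 2 of that group (-0.21). Upper-quartile scaling lost both (-0.23 and -0.15), and Atr was also lost without the low-count filter (-0.18). Brca2 (-0.93 ± 0.13 SE), Fanca (-0.87 ± 0.08 SE) and Eme1 (-0.87 ± 0.11 SE) had the lowest values.

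Within the EV-deficient label, 27 genes were called lower, 2 higher and 7 in neither direction (30.5% and 32.4% of all genes tested). The median of the 36 genes was -0.75, against 0.07 over all genes. The genes that fell by at least 2-fold numbered 8, against 7.13% of all genes tested, and Eme1 (-1.65 ± 0.11 SE), Rad54l (-1.51 ± 0.10 SE) and Exo1 (-1.50 ± 0.11 SE) had the lowest values. The 2 called higher were Rad52 (0.35 ± 0.10 SE) and Rad51b (0.40 ± 0.16 SE). Rad51b lost that call without EV-deficient DMSO replicate 2 (0.42) or 3 (0.28), or without EV-deficient paclitaxel replicate 3 (0.34), and without the low-count filter (0.36). In 15 of the 36 genes the fall was called in both EV labels, against 18.5% of all genes tested, and 1 gene, Rad51c, was called in opposite directions, against 7.09%. The call of Rad51c in the EV-deficient label (-0.34 ± 0.12 SE) was lost without EV-deficient paclitaxel replicate 2 (-0.25) and with upper-quartile scaling (-0.15).

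**Figure D3:**
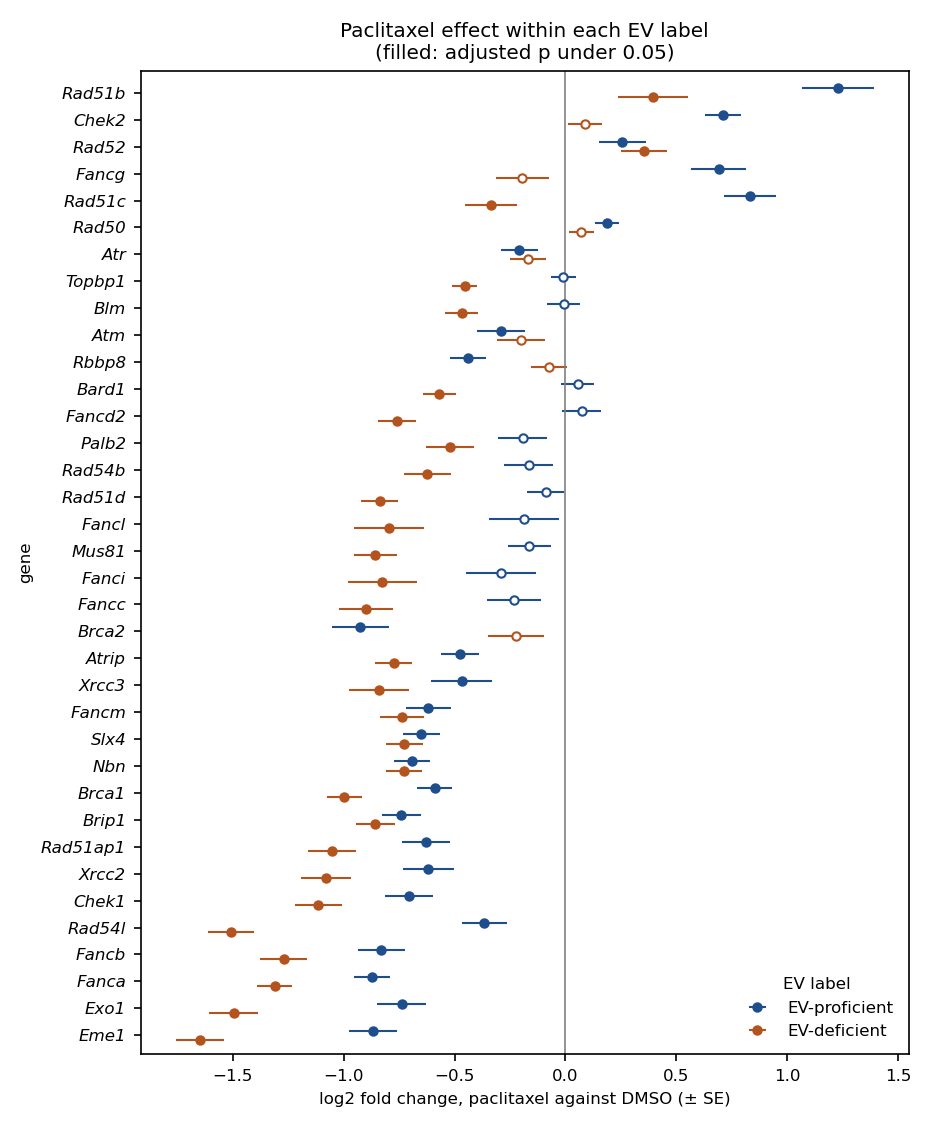
Log2 fold change of each of the 36 genes under paclitaxel against DMSO (horizontal axis, points with SE) in the EV-proficient (blue) and EV-deficient (orange) label, ordered by the average, with filled points for an adjusted p under 0.05. The orange points lie to the left of the blue ones in 31 of 36 genes, from 1.23 (Rad51b, EV-proficient) to -1.65 (Eme1, EV-deficient).

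The paclitaxel effects in the 2 EV labels were compared by the interaction of EV label and drug. The drug effect was lower in the EV-deficient label for 22 of the 36 genes and higher for 2, with 12 not called, where 23.8% and 16.9% of all genes tested were called. Upper-quartile scaling left 15 of the lower calls, without Chek1 (-0.28), Brca1 (-0.28), Rad51ap1 (-0.30), Fancb (-0.32), Rad54b (-0.33), Xrcc2 (-0.34) and Fancl (-0.49). Counting signs alone, 31 of 36 genes (86.1%) had a lower effect in the EV-deficient label, against 52.3% of all genes tested. The median interaction of the 36 genes was -0.44, against -0.04 over all genes. The lists described below also had more lower than higher interactions. Of 19 S phase and mitosis markers, 16 were called lower and 0 higher (median -0.57). Of 26 base excision, nucleotide excision and mismatch repair genes, 17 were lower and 1 higher (-0.62). In the further list of 57 tested genes, 27 were lower and 0 higher (-0.37). Of 12 non-homologous end joining genes, 4 were lower and 0 higher (-0.14). The crossed dngfr level and second component described above move with the interaction, and their part in it was not tested.

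Rad51c, whose product pairs with those of Rad51b and Xrcc3 in separate complexes (ENSMUSG00000007646, chr11:87376645-87404954), had the lowest interaction. It was at 9.87, 8.14 and 9.42 CPM in EV-proficient DMSO, 13.5, 13.9 and 13.5 in EV-deficient DMSO, 16.3, 14.3 and 18.4 in EV-proficient paclitaxel and 12.02, 9.52 and 10.8 in EV-deficient paclitaxel libraries. Under DMSO the EV-deficient libraries lay above the EV-proficient ones, and under paclitaxel the EV-proficient libraries lay above the EV-deficient ones, without overlap in either case. Its interaction was -1.17 ± 0.17 SE (edgeR adjusted p 7.34e-06). Rad54l followed at -1.14 ± 0.14 SE (edgeR adjusted p 1.52e-06) and Fancg at -0.88 ± 0.17 SE (edgeR adjusted p 2.69e-04), with the same reversal of the EV labels in their library values given above. Brca2 went the other way, at 0.70 ± 0.18 SE (edgeR adjusted p 0.00332). Rbbp8 was the other gene with a higher effect in the EV-deficient label, at 0.36 ± 0.11 SE (edgeR adjusted p 0.0141). It was at 57.4, 56.0 and 52.0 CPM in EV-proficient DMSO, 49.4, 48.4 and 48.4 in EV-deficient DMSO, 42.4, 36.9 and 43.0 in EV-proficient paclitaxel and 50.3, 40.5 and 48.0 in EV-deficient paclitaxel libraries, with an average paclitaxel effect of -0.26 ± 0.06 SE. Its EV-proficient libraries separated by treatment without overlap, and its EV-deficient libraries overlapped. Rad52 had the third highest interaction, 0.10 ± 0.15 SE, which did not pass the threshold.

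Genes whose drug effect was close in both labels were spread over the roles. Slx4 (-0.08 ± 0.12 SE), Nbn (-0.04 ± 0.11 SE), Brip1 (-0.12 ± 0.12 SE), Fancm (-0.12 ± 0.14 SE) and Atr (0.04 ± 0.12 SE) did not pass the threshold for the interaction. The SEs bound what the test could see in them, and a p above the threshold does not show that the effects were equal. Of the 2 Fanconi substrates, Fancd2 passed (-0.83 ± 0.12 SE, edgeR adjusted p 1.14e-05) and Fanci did not (-0.54 ± 0.22 SE, edgeR adjusted p 0.0582), and whether these 2 values differ was not tested. Fanci did pass with the replicate block (-0.57), without the low-count filter (-0.60) and without EV-deficient paclitaxel replicate 3 (-0.76).

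Without drug, the EV-deficient libraries were called higher than the EV-proficient ones in 5 of the 36 genes and lower in 1, against 12.4% and 10.6% of all genes tested. The 5 were Rad51c (0.58 ± 0.12 SE), Fancg (0.41 ± 0.12 SE), Exo1 (0.35 ± 0.11 SE), Rad54l (0.34 ± 0.10 SE) and Brca1 (0.23 ± 0.08 SE), and the 1 lower was Brca2 (-0.57 ± 0.13 SE). Brca2 and Rad51c kept the call in all 6 fits that left out a library. Without EV-deficient DMSO replicate 1, Exo1 (0.35), Rad54l (0.31), Fancg (0.41) and Brca1 (0.26) lost it, and the same 4 lost it without EV-proficient DMSO replicate 3 (0.35, 0.31, 0.40 and 0.20). Exo1 (0.35), Fancg (0.41) and Brca1 (0.21) lost it without EV-deficient DMSO replicate 2. Exo1 (0.36), Rad54l (0.34) and Brca1 (0.19) lost it without EV-proficient DMSO replicate 2, Fancg (0.39) without EV-proficient DMSO replicate 1, and Brca1 (0.24) without EV-deficient DMSO replicate 3. Brca1 also lost it with median-of-ratios (0.21) and upper-quartile scaling (0.20).

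Under paclitaxel, 19 of the 36 genes were called lower in the EV-deficient libraries by edgeR's quasi-likelihood test and 0 higher, against 21.8% and 16.0% of all genes tested. At an unadjusted p under 0.05, 2 were higher, and DESeq2 called 1 and limma-voom 0 higher. The lowest values were those of Rad54l (-0.80 ± 0.10 SE), Fancc (-0.63 ± 0.12 SE), Fancd2 (-0.60 ± 0.09 SE) and Rad51c (-0.59 ± 0.12 SE). Of the 19 lower calls, 14 were kept with upper-quartile scaling and 5 were lost, those of Fanci (-0.32), Fancl (-0.35), Chek1 (-0.25), Rad51b (-0.37) and Rad50 (-0.09). The same genes lost the call in some of the 6 fits without a library: Fanci in 5 of them and Fancl in 4, each down to its smallest value without EV-deficient paclitaxel replicate 2 (-0.17 and -0.31), Chek1 without that library (-0.19) or EV-proficient paclitaxel replicate 3 (-0.30), Rad51b without EV-proficient paclitaxel replicate 1 (-0.39) or EV-deficient paclitaxel replicate 1 (-0.43), and Rad50 without EV-proficient paclitaxel replicate 1 (-0.16). Fanci was also lost with DESeq2 (-0.41), median-of-ratios scaling (-0.40), the filter of 1 CPM in 3 libraries (-0.38) and only the groups compared (-0.40), and the last of these also lost Chek1 (-0.33), Fancl (-0.42) and Rad50 (-0.16). Atm had the highest value, 0.24 ± 0.11 SE, not past the threshold. Fancc, at 6.09 to 6.27 CPM in EV-deficient and 7.69 to 10.8 CPM in EV-proficient paclitaxel libraries, had overlapped under DMSO, where it ran from 10.9 to 12.3 and from 11.1 to 11.5 CPM. By sign, 30 of the 36 genes (83.3%) had opposite EV-label differences under DMSO and under paclitaxel, as did 67.1% of all genes tested. Called under both treatments were 4 genes, Rad51c, Rad54l, Fancg and Exo1, all of them higher in EV-deficient DMSO and lower in EV-deficient paclitaxel libraries, with the losses under DMSO given above. Of all genes tested, 15.7% were called under both treatments and 15.0% in opposite directions. Without EV-deficient paclitaxel replicate 2, 3 genes were called higher in the EV-deficient label, Rbbp8 (0.28), Atm (0.30) and Brca2 (0.30), and without EV-proficient paclitaxel replicate 1 Atm was (0.38).

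**Figure D4:**
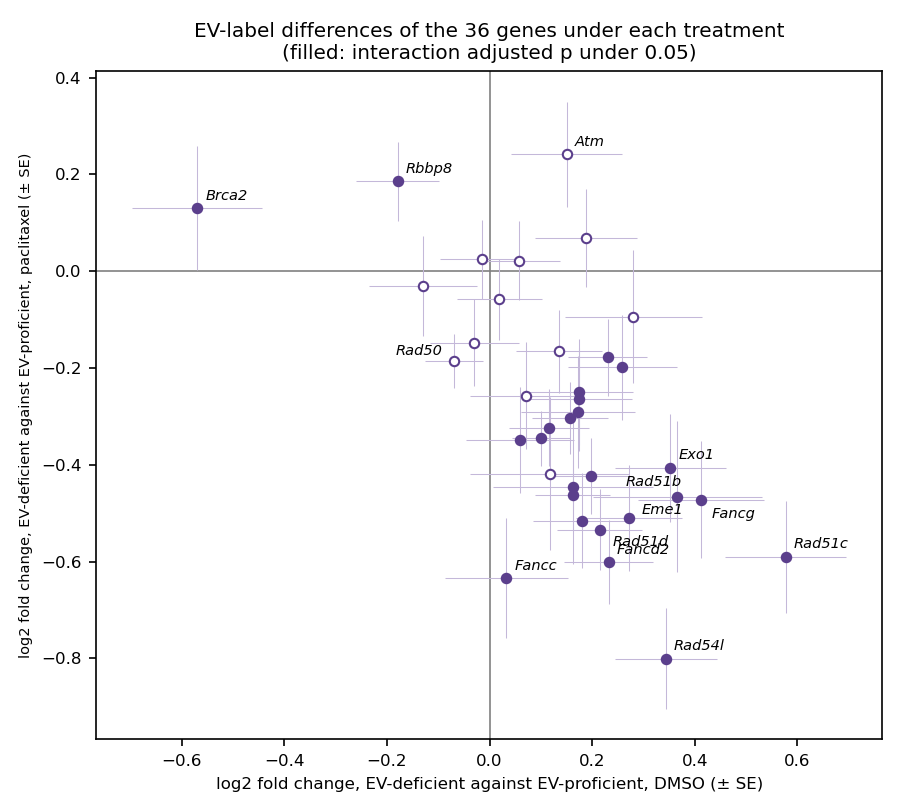
Log2 fold change between the EV labels (EV-deficient against EV-proficient) under DMSO (horizontal axis) and under paclitaxel (vertical axis) for each of the 36 genes, with SE bars and filled points where the interaction had an adjusted p under 0.05. Most points lie in the lower right, higher in EV-deficient cells under DMSO and lower under paclitaxel, and Brca2 and Rbbp8 lie in the upper left.

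S phase and mitosis markers moved with the 36 genes. The summed level of the 36 genes was 1512 ± 75.4 CPM (SD, n = 3) in EV-proficient DMSO, 1629 ± 24.7 in EV-deficient DMSO, 1251 ± 21.02 in EV-proficient paclitaxel and 1057 ± 72.2 CPM in EV-deficient paclitaxel libraries. The summed level of 19 markers, among them Pcna, Mcm2 to Mcm7, Ccne2, Top2a and Mki67, was 5320 ± 131 (SD, n = 3), 5760 ± 39.4, 3772 ± 75.6 and 2822 ± 234 CPM in the same groups. Both sums were highest in EV-deficient DMSO and lowest in EV-deficient paclitaxel libraries, and the treatments did not overlap. Within EV-deficient paclitaxel, both were lowest in replicate 2 (988.8 and 2611 CPM) and highest in replicate 3 (1133 and 3074 CPM). The markers were called lower under paclitaxel in 16 of 19 cases in the EV-proficient and in 19 of 19 in the EV-deficient label, against 27.1% and 30.5% of all genes tested. Their median average effect was -0.73, against 0.07 over all genes. Their part in the fall of the recombination genes was not tested.

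**Figure D5:**
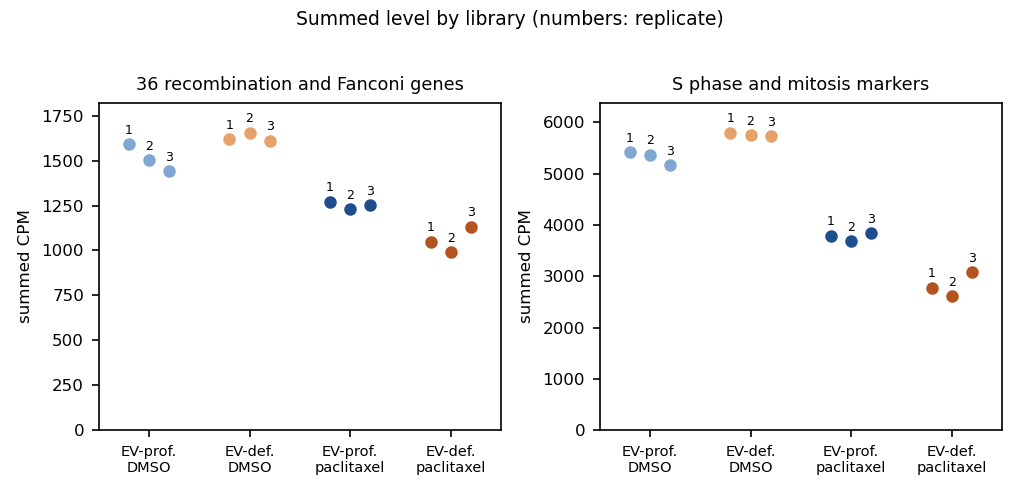
Summed CPM (vertical axes, from 0) of the 36 recombination and Fanconi genes (left) and of 19 S phase and mitosis markers (right) in each library, with the replicate number beside each point. In both panels EV-deficient DMSO libraries are highest, and EV-deficient paclitaxel libraries are lowest, from 988.8 to 1133 CPM on the left and from 2611 to 3074 CPM on the right.

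Other genes of these and related break repair pathways were read from a further list of 59 names, of which 58 were found and 57 tested. In the average effect, 40 of the 57 were called lower and 7 higher, with a median of -0.37, where 31.3% of all genes tested were lower and 37.1% higher, with a median of 0.07. The same shares stand behind the 2 lists that follow. Polq, the polymerase of microhomology-mediated joining (-1.67 ± 0.08 SE), and Dna2, a resection nuclease (-1.50 ± 0.06 SE), fell most. Wrn, a RecQ helicase (0.73 ± 0.06 SE), and Slx1b, the nuclease partner of SLX4 (0.46 ± 0.11 SE), rose most. Of 12 non-homologous end joining genes, 8 were called lower and 3 higher, with a median of -0.26. The Ku subunit gene Xrcc6 (-0.59 ± 0.04 SE) and the ligation factor gene Nhej1 (-0.58 ± 0.19 SE) fell most, and the end joining factor gene Paxx (0.40 ± 0.11 SE) and Tdp2 (0.24 ± 0.05 SE), which frees topoisomerase from DNA ends, rose most. Of 26 tested genes of base excision, nucleotide excision and mismatch repair, 15 were called lower and 6 higher, with a median of -0.31. The glycosylase gene Ung (-1.25 ± 0.07 SE) and the endonuclease gene Apex1 (-1.23 ± 0.09 SE) fell most, and the damage recognition genes Xpc (0.66 ± 0.08 SE) and Ddb2 (0.57 ± 0.11 SE) rose most. The averages of Slx1b and Ddb2 came from rises in the EV-proficient label (0.94 and 1.11), with values of -0.03 and 0.03, not past the threshold, in the EV-deficient label, and their interactions were called (-0.97 and -1.08). The interaction was also called for Dna2 (-1.34), Xrcc6 (-0.81), Ung (-0.86), Apex1 (-0.89) and Xpc (-0.64), each called in 1 direction in both labels. Tdp2 and Nhej1 were called in the EV-proficient label alone and Paxx in the EV-deficient label alone, with interactions not past the threshold.

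Promoter sequence was read for every member with an entry, whichever way it moved. RefSeq (GRCm38.p6) gave the bases upstream of the start for 28 of the 36 genes, and 250 upstream bases were searched on both strands. An E2F motif, spelled TTTGGCGC, TTTCCCGC, TTTCGCGC or TTTGCCGC, was found in 5 of the 28 (17.9%), against 2.16% of 27025 genes in the table. A CCAAT box, the letters bound by NF-Y, was found in 15 of 28 (53.6%, against 37.5%), and a CHR element, spelled TTTGAA or TTCGAA, in 2 of 28 (7.14%, against 19.6%). None of these spellings contains another. The genes with an E2F match and the bases around it are shown because their transcripts did not share a direction in the average effect. Each window is on the gene's strand, upstream of its RefSeq start, with the matching letters, or their reverse complement, in capitals:
Bard1 (chr1:71103148-71103207, minus strand): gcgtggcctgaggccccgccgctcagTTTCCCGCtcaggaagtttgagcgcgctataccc
Brca2 (chr5:150522427-150522486, plus strand): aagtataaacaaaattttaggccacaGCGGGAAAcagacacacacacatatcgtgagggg
Chek2 (chr5:110839805-110839864, plus strand): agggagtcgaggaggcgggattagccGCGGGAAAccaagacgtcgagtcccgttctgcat
Fancg (chr4:43010320-43010379, minus strand): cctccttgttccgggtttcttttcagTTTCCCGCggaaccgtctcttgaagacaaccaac
Topbp1 (chr9:103305172-103305231, plus strand): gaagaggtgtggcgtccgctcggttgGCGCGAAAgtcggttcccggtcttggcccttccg
The average paclitaxel effect was -0.26 ± 0.05 SE for Bard1, -0.58 ± 0.09 SE for Brca2 and -0.23 ± 0.04 SE for Topbp1, but 0.40 ± 0.06 SE for Chek2 and 0.25 ± 0.09 SE for Fancg. In the EV-deficient label Chek2 was at 0.09, not past the threshold, and Fancg at -0.19 or lower. The average call of Fancg was lost in 2 of the 12 fits without a library. The Fancg window lies within the span of the gene in the GENCODE M21 annotation, and the Topbp1 window reaches into it, because that annotation starts these genes elsewhere. Of the 4 genes that fell at least 2-fold, Eme1, Fanca and Fancb had none of the E2F spellings in the window searched, and Exo1 was not among the 28, nor were Rad54b, Xrcc2, Rbbp8, Nbn, Fancd2, Rad50 and Rad51d. A match is a description of these letters and not of binding.

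Brip1, lowered alike in both EV labels, had 3 CCAAT matches within 90 bases, shown on the gene's strand with each match or its reverse complement in capitals:
Brip1 (chr11:86201213-86201302, minus strand): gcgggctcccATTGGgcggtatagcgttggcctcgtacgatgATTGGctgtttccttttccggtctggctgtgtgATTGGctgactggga
Xrcc3 had 6 such matches in its 250 bases, and its average effect was -0.65 ± 0.10 SE.

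Levels of different genes were compared per kilobase of exon (CPM per kb, GENCODE M21 exon union). In EV-proficient DMSO libraries, Topbp1 (21.6 ± 1.36, SD, n = 3), Rad50 (19.3 ± 0.518) and Nbn (16.5 ± 0.816) were highest, and Rad52 (1.79 ± 0.114), Fancc (1.35 ± 0.0258) and Rad51b (1.12 ± 0.292) were lowest. Fancc and Rad51b did not separate beyond their spread. Under EV-deficient paclitaxel, Rad50 (19.3 ± 0.106) stood above Topbp1 (16.9 ± 0.393). Within the EV-deficient label, Eme1 went from the fourth place under DMSO to the tenth under paclitaxel (15.1 ± 0.425 to 4.81 ± 0.969). Chek2 went from the ninth to the fourth, while its own level (8.19 ± 0.170 to 8.71 ± 0.664) had no called change with trimmed-mean scaling, and was called higher with upper-quartile scaling (0.27). Fancc (0.742 ± 0.0117) was then lowest. Among the partners named above, Nbn was below Rad50 in every group, and Mus81, at 5.30 ± 0.439 CPM per kb in EV-proficient DMSO, was below Eme1 there and in EV-deficient paclitaxel (3.32 ± 0.325), where the gap between them was narrower.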

How the data were processed

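The 12 TruSeq stranded poly(A) libraries of MOC2 cells were sequenced, per the labels' protocols. What the authors deposited is a table of raw counts per gene, without normalization; its column names mark read pairs of 1 lane. STAR 2.5.0a and the build GRCm38 are named in the submitters' processing notes. The counting program, the annotation release and the use of strand are not given in the sources used here. Of its rows, 55421 are Ensembl genes and 2 are added sequences, dngfr and gfp (0 counts in every library), kept out of library sizes and tests. There were 0 columns of other samples.

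The 36 members, their roles and all gene lists were chosen with earlier results of these data known. The analysis used edgeR 4.0.16 under R 4.3.3: filterByExpr (minimum count 10), trimmed mean of M values (factors 0.890 to 1.15) and 1 quasi-likelihood fit of 4 group means to all 12 libraries (common dispersion 0.00956), tested on simulated data. Benjamini-Hochberg adjustment covered all 18108 genes tested, at a threshold of 0.05. An SE is the size of the log2 fold change over the square root of its F. Any member could be named; library values were given for the highest and lowest average effect in each role and the 3 highest and 3 lowest interactions. Replicates differed by more than sampling noise (chi-square per degree of freedom 4.20 to 27.8). This measure was 4.20 to 6.03 in EV-deficient DMSO and 15.1 to 27.8 in EV-deficient paclitaxel libraries. The fit shares 1 estimate of spread per gene over the 4 groups, so the SEs do not follow such differences between groups. Coordinates, exon lengths and overlaps came from GENCODE M21 (GRCm38), which held 99.7% of the table's gene identifiers. Alternatives tried were DESeq2 1.42.0 and limma-voom (limma 3.58.1), upper-quartile and median-of-ratios scaling, omission of the low-count filter or 1 CPM in at least 3 libraries in its place, a replicate block, fits to the compared groups alone, and fits without each library in turn.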

Additional observations from a re-analysis of the deposited data

Results flagged for a closer look

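The paclitaxel effect differed between the EV labels in 24 of the 36 genes, 22 lower and 2 higher, by edgeR's interaction test (adjusted p from 1.52e-06 for Rad54l to 0.0363 for Chek1, 3 libraries a group). Of all genes tested, 23.8% were called lower and 16.9% higher in it. The values are the log2 effect in the EV-deficient minus that in the EV-proficient label. Among strand exchange genes they were -1.17 for Rad51c, -1.14 for Rad54l, -0.83 for Rad51b, -0.75 for Rad51d, -0.46 for Xrcc2, -0.46 for Rad54b and -0.42 for Rad51ap1. The Fanconi genes stood at -0.88 (Fancg), -0.83 (Fancd2), -0.67 (Fancc), -0.61 (Fancl), -0.44 (Fanca) and -0.44 (Fancb). For the nuclease genes the values were -0.78 (Eme1) and -0.69 (Mus81), for resection -0.76 (Exo1), -0.46 (Blm) and 0.36 (Rbbp8), and for the BRCA complexes -0.62 (Bard1), -0.41 (Brca1) and 0.70 (Brca2). The checkpoint genes were at -0.62 (Chek2), -0.44 (Topbp1) and -0.41 (Chek1).

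Without EV-deficient paclitaxel replicate 2, 6 of these calls were lost: Chek1 (-0.21), Rad51ap1 (-0.26), Rad54b (-0.30), Fancb (-0.34), Xrcc2 (-0.37) and Fancl (-0.44). Without EV-proficient paclitaxel replicate 3 the same 6 were lost, at -0.32 (Chek1), -0.32 (Rad51ap1), -0.39 (Rad54b), -0.34 (Fancb), -0.38 (Xrcc2) and -0.49 (Fancl). Over the 12 fits that left out a library, the call was lost in 8 for Chek1, 7 for Fancl, 6 for Rad51ap1, 6 for Xrcc2, 5 for Fancb and 4 for Rad54b, and the values ranged from -0.78 (Fancl) to -0.21 (Chek1). The other 18 genes kept the call in all 12 of these fits, but 1 of them, Brca1, lost it with upper-quartile scaling (-0.28), as did the 6 named here. Chek1 was also lost with median-of-ratios scaling (-0.36), the filter of 1 CPM in 3 libraries (-0.36) and DESeq2 (-0.37), and Rad51ap1 with the first 2 of these (-0.38 and -0.37).

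The added dngfr row, which no comparison used, averaged 12.4 ± 1.70 CPM of unscaled library totals (SD, n = 3) in EV-deficient paclitaxel libraries, against 1.95 ± 0.337 in EV-deficient DMSO, 8.29 ± 3.07 in EV-proficient DMSO and 3.42 ± 0.728 in EV-proficient paclitaxel libraries. The labels give no source for this sequence.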

How the results depend on the processing

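Of the 139 calls made for the 36 genes over 6 comparisons, 0 changed sign under any alternative, and 29 were lost under at least 1, of which 8 were lost only by leaving out a library. Of 1138 recomputed values of genes not called, 63 changed sign, and the counts by sign alone include such genes. Counted once per gene and comparison, 28 that were not called passed the threshold under at least 1 alternative. The average paclitaxel effect was called lower in 30 genes in every fit that left out a library and higher in 4 to 6. Upper-quartile scaling moved the median of all genes from 0.07 to 0.26 in the EV-deficient label, from -0.04 to 0.08 in the interaction and from 0.07 to 0.19 in the average effect. The members' medians less those of all genes were then -0.82, -0.40 and -0.60, within 0.01 of their values with trimmed-mean scaling, and 27 genes were called lower on average, 15 in the interaction (against 22) and 14 between the EV labels under paclitaxel (against 19). That scaling raised the share of calls in the higher direction from 51.5% to 63.4%, from 41.4% to 53.9% and from 42.4% to 58.2% in the EV-deficient label, the interaction and the EV labels under paclitaxel. Without the low-count filter that share was 64.1% against 53.9% between the EV labels under DMSO.

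Members called higher under paclitaxel in the EV-deficient label numbered 2, 4 with upper-quartile scaling, 1 without the low-count filter and 1 to 2 without a library. Over all genes, 11396 of 18108 were called there (51.5% of them higher). The count was 11578 (63.4%) with upper-quartile scaling and 11527 of 35104 (50.5%) without the filter. Between the EV labels under DMSO, 5 members were called higher, 9 without the low-count filter, 10 with only the groups compared (and 2 lower, against 1) and 1 to 4 without a library. All genes called numbered 4162 of 18108 (53.9% of them higher). They were 4455 of 35104 (64.1%) without the filter, 5697 of 15580 (49.1%) with only the groups compared and 2980 to 3515 without a library. Under paclitaxel, 0 were called higher, 1 by median-of-ratios and 2 by upper-quartile scaling, 1 without the low-count filter, 2 with the filter of 1 CPM in 3 libraries, 1 with DESeq2 and 0 to 3 without a library. The cause was not tested.

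The labels do not say whether replicate numbers pair the libraries. Same-numbered libraries of different groups had correlations of their deviations from -0.081 to 0.097, which cannot show that they were unpaired. With the replicate block, members were called lower and higher in 19 and 6 cases (EV-proficient), 27 and 2 (EV-deficient), 30 and 6 (average) and 23 and 2 (interaction). Between the EV labels the counts were the same as without the block, 1 lower and 5 higher under DMSO and 19 lower and 0 higher under paclitaxel. With 3 libraries a group, the spread between libraries limits what could be called; the lowest member, Rad51b, had at least 3.42 CPM in every library.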

Other observations

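Within the EV-deficient paclitaxel group, 23 of the 36 genes were lowest in replicate 2 and 22 were highest in replicate 3. The widest gap in that group among the Fanconi genes was that of Fanci, at 10.2 CPM in replicate 2 and 21.3 CPM in replicate 3. In EV-proficient DMSO, 23 genes were highest in replicate 1 and 24 lowest in replicate 3. Such orders were not counted over all genes tested, so these counts are not shown to be particular to the 36 genes.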
